A study of Arabidopsis thaliana with 6 samples.

Results

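TRAF-like proteins carry a MATH domain (meprin and TRAF homology), and this report describes 6 Arabidopsis loci listed as such genes. They are AT5G26260 with its chromosome 5 relatives AT5G26280, AT5G26290, AT5G26300 and AT5G26320, and AT3G20370 on chromosome 3. AT5G26260 had been selected on its large callus minus leaf difference in these arrays. The other loci were listed as its relatives with this contrast known, and their relatedness was not computed here. The callus-leaf contrast of the members is therefore given as a description and carries no p-value. A member was measured where the platform's gene table tied a probe set to that locus alone. This held for 3 of the 6 members, AT5G26260, AT5G26280 and AT3G20370, among 13356 named genes. Each of them had 1 probe set. Whether these probe sets also respond to RNA of related loci was not tested. AT5G26290, AT5G26300 and AT5G26320 were not analysed here.

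The samples were wild-type Arabidopsis thaliana, accession Col-0, in 2 tissues with 3 arrays each. Leaves came from seedlings 20 days old. Calli, the unorganized cell masses that explants form in culture, came from leaf blades of that age that had spent another 20 days on CIM, a callus-inducing medium that supplies auxin, cytokinin and sugar. Tissue type, hormones, medium, wounding and time in culture changed together between the groups and cannot be told apart, and a difference may reflect more cells of one type or more RNA per cell. The sample labels give 16 h of light and 8 h of dark for both tissues. The methods of the study place explants on CIM in the dark, so light may also have differed between the groups.

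The MATH domain is a fold for binding other proteins. It was described in the TRAF adaptors of animals, which gather signalling proteins at receptors, and plants hold an expanded set of genes for it. In Arabidopsis the best-known MATH proteins are the BPM proteins, which join a MATH domain to a BTB domain and present target proteins to cullin-3 ubiquitin ligases. SINAT proteins, RING-type ubiquitin ligases, end in a related TRAF-like fold. The gene tables used here hold names and no descriptions, so no function is given for the 6 loci.

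The 6 arrays were closely matched. On the log2 scale the array medians ran from 5.79 to 5.96, and the lowest Pearson correlation across genes was 0.997 among callus arrays and 0.995 among leaf arrays. Marker genes were listed with earlier results of these data known, so they describe the tissues and are no independent check of the labels. All 5 listed photosynthesis genes and both listed guard cell genes were lower in callus, and all 4 listed root regulators were higher. Of the 2 listed root hair genes, EXPA7 had a log2 difference of 0.55 and was not called, and COBL9 was not measured. Across all genes, 29.6% were called, 16.4% higher in callus and 13.2% lower, a call requiring both a change above 2-fold and an adjusted p under 0.05 (limma, Benjamini-Hochberg over 13356 genes).

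All 3 measured members were bright in callus and dim in leaf. AT5G26260 had a log2 signal of 11.52, 11.12 and 11.24 on callus arrays 1 to 3, and of 4.29, 4.45 and 4.25 on leaf arrays 1 to 3. The lowest callus array lay 6.67 above the highest leaf array, so the tissues were far from overlapping. The means were 11.29 ± 0.21 in callus and 4.33 ± 0.11 in leaf (SD, n = 3), a difference of 6.96 ± 0.10 on the log2 scale (SE), or 125-fold. Here and below, the SE of a difference is limma's moderated value. It draws on the spread of all genes and can be smaller than the printed SDs would give.

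AT5G26280, the next measured member along chromosome 5, behaved in the same direction with a smaller difference. Its log2 signal was 9.37, 9.12 and 8.94 on callus arrays 1 to 3 and 3.70, 3.90 and 3.99 on leaf arrays 1 to 3. Every callus array was above every leaf array, with a gap of 4.95. The means were 9.14 ± 0.22 and 3.87 ± 0.15 (SD, n = 3), and the difference of 5.28 ± 0.12 on the log2 scale (SE) corresponds to 38.8-fold.

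AT3G20370 lies on another chromosome and had the most even callus values of the 3. They were 10.30, 10.29 and 10.18 on callus arrays 1 to 3, against 4.47, 4.21 and 4.52 on leaf arrays 1 to 3. The gap between the tissues was 5.66. The means were 10.26 ± 0.065 in callus and 4.40 ± 0.17 in leaf (SD, n = 3), which gave a difference of 5.85 ± 0.10 on the log2 scale (SE), or 57.9-fold.

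**Figure D1:**
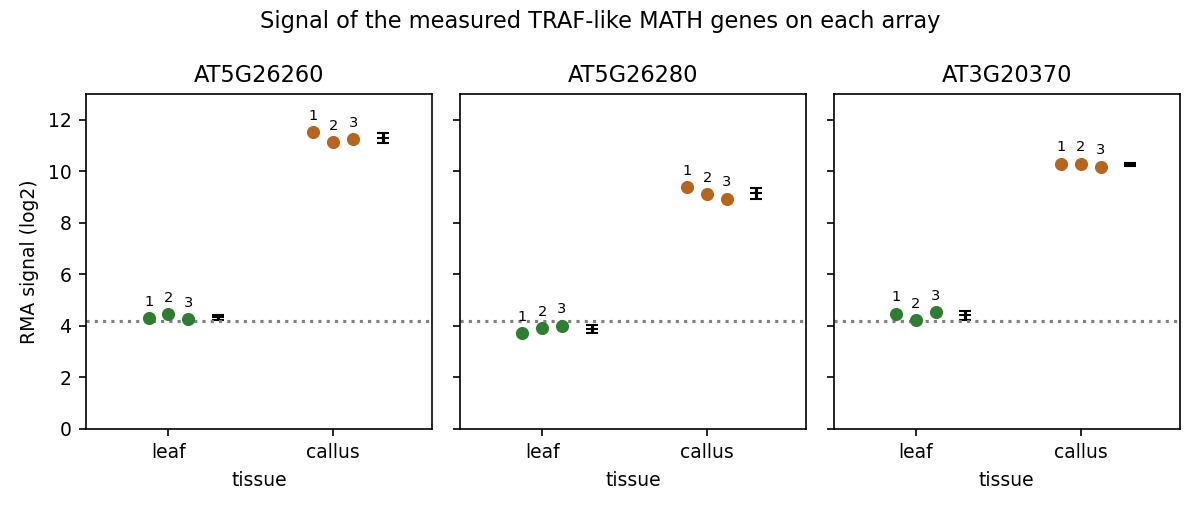
RMA signal (log2) of AT5G26260, AT5G26280 and AT3G20370 on each leaf (green) and callus (brown) array, with the replicate number above each point, the mean ± SD as a bar beside the points and the mean first quartile of the arrays as a dotted line. Leaf values sit at or near the dotted line and callus values between 8.94 and 11.52; heights of different genes come from different probes and are not comparable.

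The leaf signals were close to the dim end of the arrays, where the first quartile of all probe sets lay between 4.15 and 4.23. AT5G26280 was below the first quartile on all 3 leaf arrays, whereas AT5G26260 and AT3G20370 were above it on all 3. RMA values carry no detection call, so the leaf values do not show whether these genes were expressed there, and the folds are not exact. With values under the first quartile raised to it, the difference of AT5G26280 became 4.96 on the log2 scale and those of AT5G26260 and AT3G20370 stayed at 6.96 and 5.85.

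Among all 13356 genes, AT5G26260 ranked 10 by the size of its rise, AT3G20370 ranked 24 and AT5G26280 ranked 51. A difference over 5 on the log2 scale, which all 3 had, was found in 0.419% of genes. The members' median difference was 5.85, beside 0.0076 for all genes. All 3 met the call rule, which 16.4% of all genes met in this direction, and in all 3 the arrays did not overlap between tissues, as in 66.0% of all genes. The members were chosen with this contrast known, so nothing is read from these counts.

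**Figure D2:**
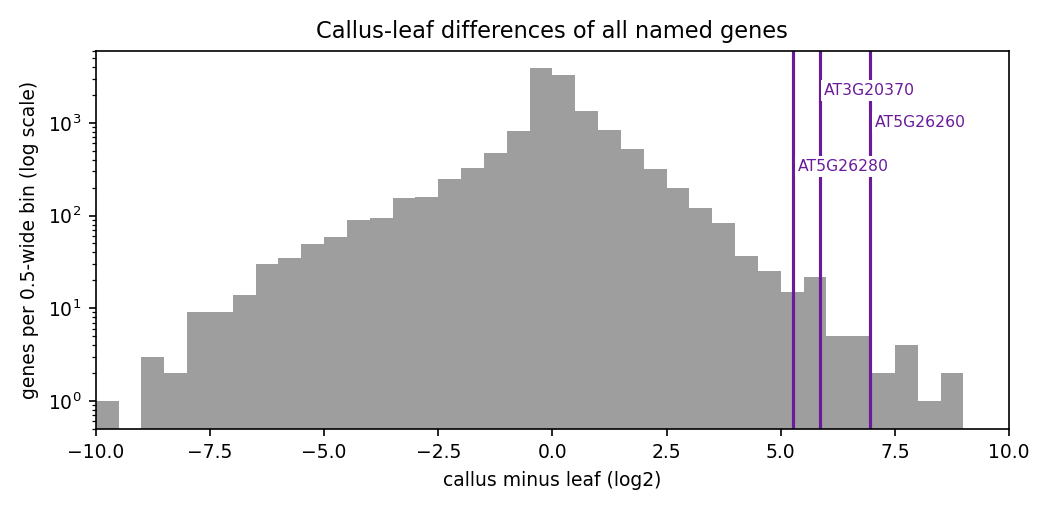
Number of genes per bin of the callus minus leaf difference (log2), on a log axis, for all 13356 named genes, with vertical lines at the 3 measured TRAF-like MATH genes. The lines stand at 5.28, 5.85 and 6.96, in the sparse right tail of the distribution.

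The members differed from each other in how far they moved and in how steady they were. The fold of AT5G26260 was 3.22 times that of AT5G26280 and 2.16 times that of AT3G20370. AT5G26260 and AT5G26280 were both highest on callus array 1, each by 0.23 above its callus mean on the log2 scale. AT3G20370 was highest on this array as well, by 0.042 above its callus mean.

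The spread among callus arrays was wide for the pair on chromosome 5 and ordinary for AT3G20370. The callus SD was larger in 6.50% of genes than for AT5G26260 and in 5.32% than for AT5G26280, and it was larger in 65.8% of genes than for AT3G20370. In leaf, a larger SD was found in 48.6%, 28.4% and 22.2% of genes for AT5G26260, AT5G26280 and AT3G20370. Each SD rests on 3 arrays. For every member the difference between tissues was at least 24.3 times its larger SD.

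The size of the differences moved little between settings, and no setting tried was large enough to bring one near 2-fold. Leaving out 1 array at a time gave 6.85 to 7.05 for AT5G26260, 5.16 to 5.38 for AT5G26280 and 5.76 to 5.91 for AT3G20370 (log2 differences). Scaling moved them further. The lowest values came with centring on TIP41, a reference gene, at 6.38 for AT5G26260, 4.69 for AT5G26280 and 5.27 for AT3G20370. The highest came with centring on the poly-A spike controls, at 7.62, 5.94 and 6.51 in the same order.

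**Figure D3:**
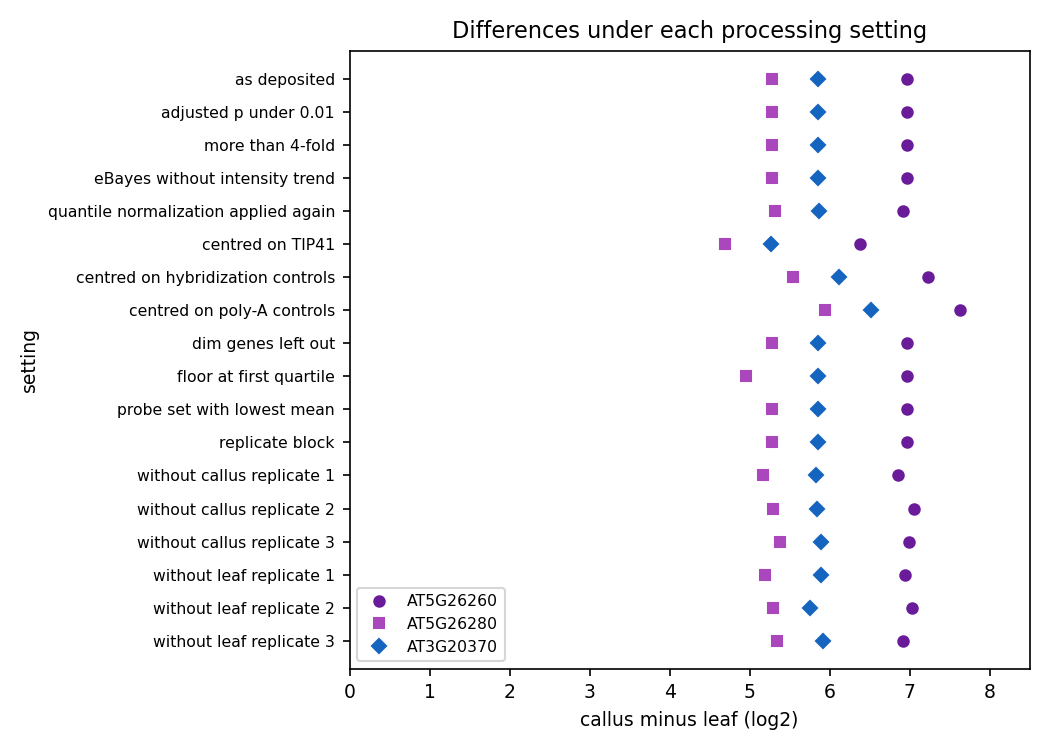
Callus minus leaf difference (log2) of AT5G26260 (circles), AT5G26280 (squares) and AT3G20370 (diamonds) as deposited and under each alternative setting. Points of each gene stay within 4.69 to 7.62, and in every setting AT5G26260 lies to the right of AT3G20370 and AT3G20370 to the right of AT5G26280.

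The genes around the members were also compared between callus and leaf, although most of them were not measured. In the RefSeq gene order, 27 other genes lay between the chromosome 5 members or within 10 places of them, and 8 of these were measured. By limma 2 of the 8 were higher in callus and 0 were lower, beside 16.4% and 13.2% of all genes, and 5 had an unadjusted p under 0.05, beside 63.8% of all genes. Their median difference was -0.02 on the log2 scale.

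AT5G26270, which lies between AT5G26260 and AT5G26280 and has only a locus name in the gene tables, was the neighbour that rose most. Its log2 signal was 6.80, 6.81 and 7.06 on callus arrays 1 to 3 and 4.81, 4.60 and 4.65 on leaf arrays 1 to 3, with no overlap. The difference was 2.20 ± 0.12 (SE, limma adjusted p = 1.11e-10), or 4.61-fold, beside 125-fold and 38.8-fold for the members at its sides. AT5G26250, next to AT5G26260 on the other side, had means of 5.03 ± 0.10 (callus) and 5.20 ± 0.19 (leaf; SD, n = 3), and its difference of -0.16 ± 0.12 did not pass the test (limma adjusted p = 0.283).

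UGT72E3, a glucosyltransferase gene of monolignol metabolism, lies between the unmeasured members AT5G26300 and AT5G26320. It had log2 signals of 4.81, 4.70 and 5.02 in callus and 4.76, 4.67 and 4.75 in leaf, and the tissues overlapped (difference 0.12 ± 0.11, SE, limma adjusted p = 0.409). Beyond the cluster, AT5G26330 was at -0.26 and the pseudogene AT5G26350 at -0.24, neither of them called. AT5G26360 rose by 1.69 ± 0.07 (SE, limma adjusted p = 4.36e-12). AT5G26200 at 0.85 and PWD, for the phosphoglucan water dikinase of starch breakdown, at -0.54 were under the 2-fold limit. AT5G26200 passed it after centring on the hybridization controls (1.11) or the poly-A controls (1.51), and PWD passed it after centring on TIP41 (-1.13) and turned to 0.12 on the poly-A controls.

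Around AT3G20370 the measured neighbours went both ways. Of 20 genes within 10 places, 6 were measured, of which limma called 2 higher and 3 lower in callus, beside 16.4% and 13.2% of all genes. PYRB, which encodes aspartate carbamoyltransferase of pyrimidine synthesis, rose from 7.21 ± 0.0044 to 9.26 ± 0.032 (SD, n = 3), a difference of 2.06 ± 0.07 (SE, adjusted p = 2.95e-13). AT3G20430 rose by 1.17 ± 0.10, a call lost after centring on TIP41 (0.58). AT3G20450, AT3G20300 and AT3G20340 had differences of -1.75, -1.73 and -1.25, and AT3G20340 lost its call after centring on the hybridization controls (-0.98) or the poly-A controls (-0.59). AT3G20460 was at 0.41 and not called, but passed 2-fold on the poly-A controls (1.07) and turned to -0.17 on TIP41. The genes directly beside AT3G20370 were not analysed here.

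**Figure D4:**
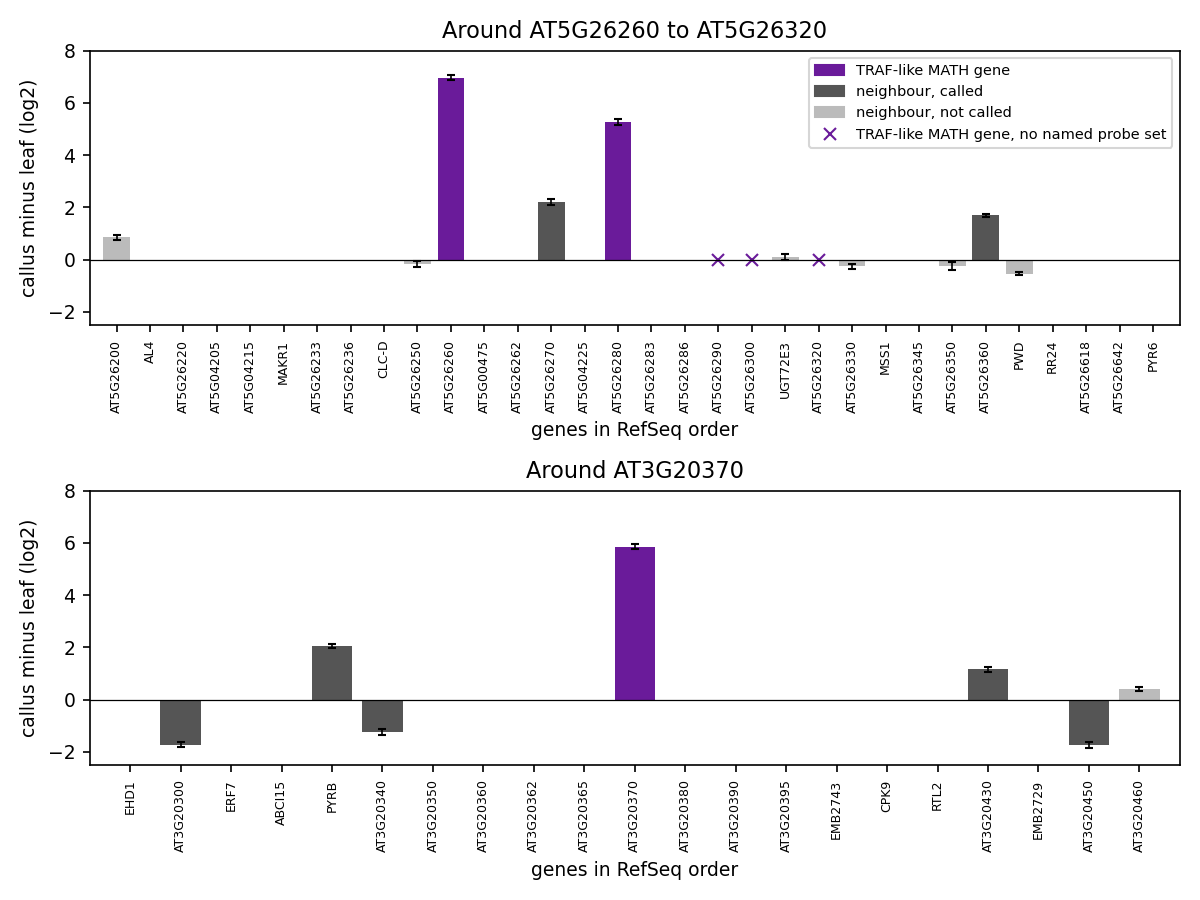
Callus minus leaf difference (log2, error bars ± SE) of measured genes in RefSeq gene order around the chromosome 5 members (top) and AT3G20370 (bottom); purple bars are TRAF-like MATH genes, dark grey bars called neighbours, light grey bars neighbours that were not called, crosses members without a named probe set, and places without a mark genes that were not measured. The 3 purple bars reach 5.28 to 6.96, and no measured neighbour passes 2.20.

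Other MATH and TRAF-type genes were followed through a list of 19 loci with BPM genes and their cullin partners, MATH-type deubiquitinases, SINAT genes and single MATH genes. It was written from general knowledge with earlier results of these data known, so its counts and p-values are a description. MATH genes known only by a locus name may be missing. Closer relatives of the members were therefore not looked at. Of the 19 loci, 7 were measured. By limma 0 of 7 were called in either direction, beside 16.4% of all genes called higher and 13.2% lower. An unadjusted p under 0.05 was found for 7 of 7, beside 63.8% of all genes. The 7 loci moved by less than 2-fold, with differences between -0.94 and 0.88 and a median of -0.34 (log2), beside 0.0076 for all genes. At an adjusted p under 0.05 with no fold limit, 3 were higher and 4 lower in callus, in a background where 61.2% of all genes passed that rule, 34.4% as higher and 26.7% as lower.

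The 3 with positive differences were the MATH genes proper. BPM3, for a BTB and MATH protein, had log2 signals of 8.39, 8.49 and 8.55 in callus and 7.46, 7.55 and 7.77 in leaf, a difference of 0.88 ± 0.09 (SE, limma adjusted p = 2.84e-07). AT5G43560 was at 0.88 ± 0.07 and AT1G04300 at 0.75 ± 0.07, both listed as single MATH genes. None of the 3 overlapped between tissues, as was the case for 66.0% of all genes. All 3 passed 2-fold after centring on the hybridization controls (1.14, 1.14 and 1.01) or the poly-A controls.

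The 4 measured loci of the SINAT list were the lower ones. AT2G41980 was at -0.94 ± 0.11, AT4G27880 at -0.78 ± 0.07, AT5G53360 at -0.69 ± 0.07 and AT3G61790 at -0.34 ± 0.07 (log2 difference, SE). After centring on TIP41, 3 of them passed 2-fold as lower (-1.53, -1.37 and -1.27 in the order above). AT2G41980 also passed without leaf replicate 1 (-1.02) and after a repeated quantile normalization (-1.01). After centring on the poly-A controls AT3G61790 turned to 0.32.

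The members were also set beside genes of the ER body, a compartment of the endoplasmic reticulum in roots and seedlings that stores the beta-glucosidase PYK10. Of 18 listed genes for ER bodies and the PYK10 complex 7 were measured, and 6 were higher in callus, beside 16.4% of all genes called in this direction. The median log2 difference of all 7 was 6.40. The list was written with earlier results of these data known, so nothing is read from its counts or p-values. NAI2, for a component of ER bodies, had log2 signals of 10.81, 10.82 and 10.84 in callus and 4.39, 4.24 and 4.63 in leaf, a difference of 6.40 ± 0.10 (SE, limma adjusted p = 3.43e-17). The lectin genes JAL22 and JAL34, whose products are found in the PYK10 complex, were at 6.92 ± 0.15 and 5.39 ± 0.06. PYK10 and JAL33 were at 7.91 and 7.96. NAI1, the bHLH transcription factor needed for ER bodies, rose by 1.58 ± 0.21 (adjusted p = 5.75e-06), and its difference fell just under 2-fold after centring on TIP41 (0.99). JAL23 was dim in both tissues and its difference of -0.03 was not called. The members AT5G26260, AT3G20370 and AT5G26280 were at 6.96, 5.85 and 5.28. NAI2, PYK10, JAL22, JAL33 and JAL34 were between 5.39 and 7.96, while NAI1 and JAL23 were at 1.58 and -0.03. Members and list were both chosen with earlier results of these data known, so nothing is read from the likeness in size. Whether the 2 groups of genes are linked was not tested.

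**Figure D5:**
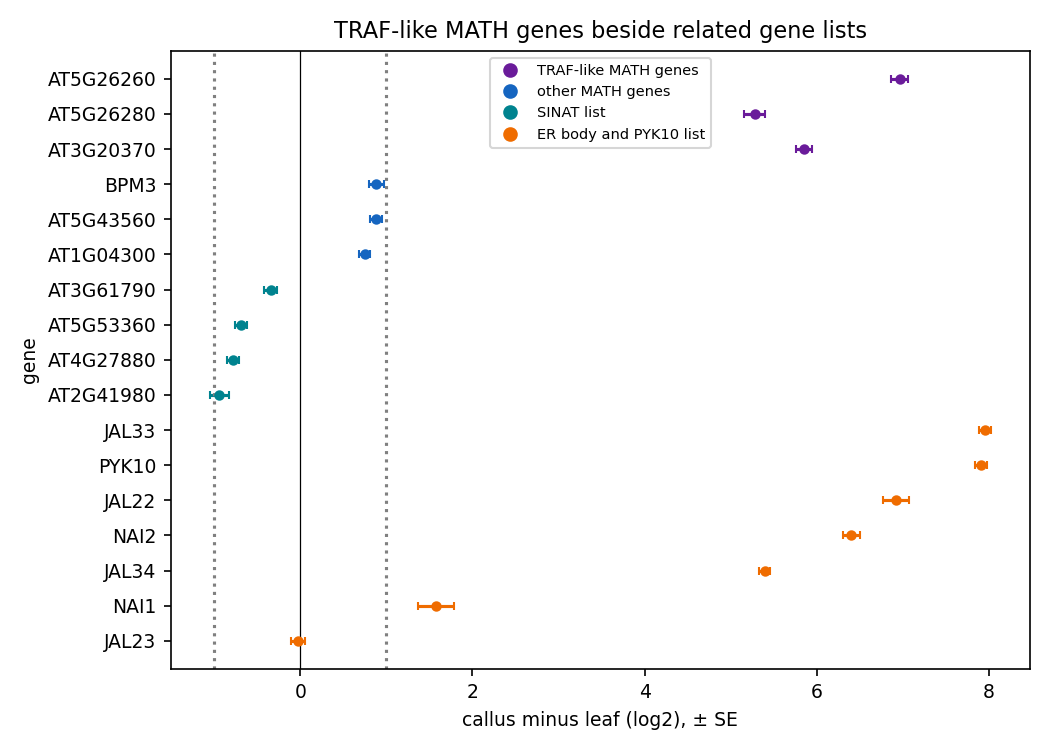
Callus minus leaf difference (log2, error bars ± SE) of the measured TRAF-like MATH genes (purple), other MATH genes (blue), the SINAT list (teal) and the ER body and PYK10 list (orange), with dotted lines at a 2-fold change. The other MATH and SINAT genes lie between -0.94 and 0.88, inside the dotted lines, while 5 of the 7 ER body and PYK10 genes lie between 5.39 and 7.96.

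The genes with the most similar values were found by the Euclidean distance to each member over the 6 log2 values. For AT5G26260 the nearest were AT4G33560 at a distance of 0.593, JAL22 at 0.594 and AT2G17850 at 0.598. For AT3G20370 they were AT5G10040 at 0.537, EEL, a bZIP transcription factor gene of seed maturation, at 0.604 and AT1G59660 at 0.621. For AT5G26280 they were AT5G48570 at 0.397, GSTU25, a glutathione transferase gene, at 0.404 and AT1G56680 at 0.511.

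This distance mixes the size of the tissue difference with the brightness of each probe set. With each gene's mean over the arrays removed, the nearest gene became AT2G17850 for AT5G26260 (0.330), AT2G28790 for AT3G20370 (0.136) and UGT73B4, a glycosyltransferase gene, for AT5G26280 (0.256). JAL22 stayed second for AT5G26260 (0.566), EEL stayed second for AT3G20370 (0.271), and JAL34 came second for AT5G26280 (0.367). With 6 arrays of 2 tissues, these distances rest mostly on the difference between callus and leaf.

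The study followed H3K27me3, a histone mark of silenced genes, during callus formation. No member locus stood in its lists of loci that lost or gained this mark in callus, and the mark itself was not analysed here.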

How the data were processed

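Total RNA of 3 callus and 3 leaf samples was hybridized to Affymetrix arrays, 1 array per sample. The study's methods call them independent experiments. The authors deposited log2 expression values for 22810 probe sets; the submitters' processing notes name RMA (background correction, quantile normalization, probe set summary) and Partek, with versions and chip description file not given in the sources used here. RMA hides changes in total RNA per cell. The number of arrays limits the precision.

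Besides 64 control probe sets, the platform's gene table gave 1 gene for 13513 probe sets, several for 503, which were left unnamed; the other 8730 are not listed in it and are unnamed here. The probe set with the highest mean was kept per gene, leaving 13356 genes. Names and gene order came from the TAIR10.1 RefSeq table. Both tissues were compared in limma 3.58.1 under R 4.3.3 (linear model, eBayes with an intensity trend, Benjamini-Hochberg over all genes), and genes were called at an adjusted p under 0.05 and more than 2-fold. The scripts were tested on simulated data. The members and lists were chosen with earlier results of these data known. Named were the members, all measured genes of the lists and neighbours, and the 3 nearest genes per member. Descriptions could not be searched, so gene symbols and synonyms were searched for TRAF-like, MATH domain or meprin, members left out. This found only BPM genes, none of them measured. Genes whose names hold none of these words could not be found this way. The distance with gene means removed and the gene order count in the observations were added after seeing the data. Alternatives covered thresholds, moderation, normalization, scaling, filters, probe set choice, a replicate block and leaving out each array. The listed root hair gene EXPA7 was at 0.55 and not called.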

Additional observations from a re-analysis of the deposited data

How the results depend on the processing

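The 3 members stayed past 2-fold in every alternative, none of which could have moved differences of this size below it. Over all genes, 2193 were called higher and 1765 lower. These counts became 839 and 956 at more than 4-fold, 1257 and 2794 after centring on TIP41, and 4121 and 1160 on the poly-A controls. These scalings shifted all genes by -0.59 and 0.66 on the log2 scale, and the hybridization controls by 0.26. Without 1 array at a time the counts were 2158 to 2232 higher and 1747 to 1790 lower.

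Of the 7 measured loci of the MATH and SINAT lists, 0 were called as deposited. Centring gave 3 higher on the hybridization controls and 3 higher on the poly-A controls. Centring on TIP41 gave 3 lower, all of the SINAT list, and quantile normalization applied again gave 1 lower. Leaving out 1 array gave 0 higher and 0 to 1 lower. Of the 14 neighbours, 4 were higher and 3 lower, which became 2 and 0 at more than 4-fold, and 1 lower where dim genes were left out (7 neighbours tested). They became 3 and 4 on TIP41, 5 and 2 on the hybridization controls and 6 and 2 on the poly-A controls. Leaving out 1 array kept 4 and 3. Of 468 values of 28 other genes (the 7 above, the 14 neighbours and 7 ER body and PYK10 genes), 430 kept their side of the threshold, 10 lost a call, 15 gained one and 13 changed sign without a call as deposited; 0 called values changed sign.

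The labels number the replicates alike in both tissues. Deviations of same-numbered arrays from their tissue means correlated at -0.11, 0.07 and -0.04. Callus array 2 correlated highest with the leaf array of its own number, and callus arrays 1 and 3 did not. A shared effect could be too small to see this way, so whether the arrays were paired is not settled. A replicate block left 2193 higher and 1765 lower and 3 members called. The number of arrays and the dim leaf signals limit the precision of the folds.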

Other observations

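A limit chosen after the values were seen was used to describe how strongly rising genes lie along the gene order. A difference over 5 on the log2 scale was found for 56 genes, 0.419% of all genes. Another of the 56 within 5 places in the RefSeq gene order was found for 6 of them (10.7%), which formed 3 pairs. The pairs were AT5G26260 with AT5G26280, the lectin genes JAL33 with JAL34, and AT3G13610 with AT3G13650. AT5G26260 and AT5G26280 lie 5 places apart, so that the window just takes them in, and the count was not tested against chance. Genes without a named probe set could not enter it.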
